A study of Drosophila melanogaster with 3 samples.

Results

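The genes described here encode subunits of the Mediator coactivator and the TBP-associated factors (TAFs) of the general transcription factor TFIID in Drosophila melanogaster. They were taken as all protein-coding genes on the main chromosome arms whose symbol starts with MED or Taf followed by a digit, which gave 40 genes, 25 of Mediator and 15 TAF genes, of 13945 protein-coding genes. Genes of the same complexes with other symbols fall outside this rule and are given separately. Binding of foxo, a forkhead transcription factor, had been mapped by chromatin immunoprecipitation sequencing (ChIP-seq) in the strain foxo-MiMIC-GFP, in which an eGFP exon within an intron of foxo makes a foxo-GFP fusion, and an anti-GFP antibody was used to precipitate it. The 3 biological replicates form 1 group and came from whole wandering larvae of the third instar, males and females pooled, of unknown age. All tissues of the larva are therefore mixed, and no untagged or input peak list was analysed here, so that signal that depends on foxo cannot be told apart from signal that does not. No second condition exists, and the members are compared with all protein-coding genes by counts, medians and intervals, with no test.

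Mediator is a large complex that joins DNA-bound activators to RNA polymerase II. Its head and middle modules contact the polymerase, its tail is contacted by many activators, and a separable kinase module holds Cdk8. TFIID consists of the TATA-binding protein and the TAFs, recognises core promoter elements and starts the assembly of the initiation complex. Several TAFs pair through histone-fold domains, among them Taf4 with Taf12, Taf6 with Taf9, Taf8 or Taf3 with Taf10, and Taf11 with Taf13. Most of the genes for these subunits are used in most cells, and many start back to back with another gene. Neither expression nor promoter function was measured here.

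The DNA behind the results is shown for 6 bound members, namely the 3 Mediator genes MED30, MED27 and MED17 and the 3 TAF genes Taf4, Taf13 and Taf11, and for 3 short gaps without a peak that passed the authors' threshold. A gap is the whole stretch between the start sites of a member and its head-to-head neighbour, and a summit window reaches 60 bases to each side of the peak's highest point. Sequences were read from the dm6 genome on the strand of the named gene, 5′ to 3′, with capitals marking matches on either strand to 3 short motifs. The forkhead core was searched as the word ATAAACA, the word ATAAATA, the word GTAAACA and the word GTAAATA, the core of the DNA replication-related element (DRE) as TATCGAT, and the E-box as CAGCTG. In the MED27 gap a forkhead core match and a DRE core match overlap and form 1 run of capitals. The Taf11 summit itself lies past its gap, inside und. The gap of MED30 to Rev1 lies at chr3L:654090-654362 (minus strand), that of MED27 to elm at chr3R:5654862-5655138 (plus), and the window of MED17 at chr3R:18188906-18189026 (plus). The window of Taf4 lies at chr3L:16113635-16113755 (plus), the gap of Taf13 to nesd at chr2L:20093850-20093971 (minus) and that of Taf11 to und at chr2L:9763263-9763368 (minus).
MED30 to Rev1: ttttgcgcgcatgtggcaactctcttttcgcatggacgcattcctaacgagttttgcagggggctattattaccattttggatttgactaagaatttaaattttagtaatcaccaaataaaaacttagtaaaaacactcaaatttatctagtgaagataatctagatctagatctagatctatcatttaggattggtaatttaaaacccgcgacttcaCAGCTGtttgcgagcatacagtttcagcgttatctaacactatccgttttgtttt
MED27 to elm: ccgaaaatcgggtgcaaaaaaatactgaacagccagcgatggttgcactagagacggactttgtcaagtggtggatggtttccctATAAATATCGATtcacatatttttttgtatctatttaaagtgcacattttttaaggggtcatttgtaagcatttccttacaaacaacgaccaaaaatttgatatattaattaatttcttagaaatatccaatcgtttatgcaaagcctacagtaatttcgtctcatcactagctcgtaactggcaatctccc
MED17 summit: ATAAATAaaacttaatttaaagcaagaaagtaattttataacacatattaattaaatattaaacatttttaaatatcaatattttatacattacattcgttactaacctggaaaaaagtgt
Taf4 summit: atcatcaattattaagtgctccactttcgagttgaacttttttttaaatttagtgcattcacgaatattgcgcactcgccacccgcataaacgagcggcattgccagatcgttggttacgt
Taf13 to nesd: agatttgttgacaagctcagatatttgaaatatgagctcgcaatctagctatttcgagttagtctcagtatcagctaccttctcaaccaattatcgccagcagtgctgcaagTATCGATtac
Taf11 to und: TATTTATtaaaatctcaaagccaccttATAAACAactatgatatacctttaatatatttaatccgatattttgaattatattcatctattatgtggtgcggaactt

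The 3 gaps without such a peak are among the shortest, with the start sites at most 53 bp apart. Each held the summit of a weaker peak in the authors' relaxed list pooled over the replicates, so they are not examples of gaps without signal. The gap of MED20 to Trf, with the start sites 47 bp apart, had no summit in that list and is not shown. The gap of Taf10 to Taf10b lies at chr2L:2767846-2767889 (plus), that of MED10 to PDCD-5 at chr3L:16232039-16232083 (plus) and that of Taf12 to Ho at chr3R:11679691-11679742 (minus).
Taf10 to Taf10b: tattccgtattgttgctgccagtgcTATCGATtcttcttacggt
MED10 to PDCD-5: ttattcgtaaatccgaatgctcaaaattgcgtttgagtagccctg
Taf12 to Ho: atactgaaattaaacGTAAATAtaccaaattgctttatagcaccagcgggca

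A gene was called bound when the summit of a peak of the authors' optimal list, the 9766 peaks that passed their reproducibility threshold, lay within 1000 bp of one of its transcription start sites (TSSs). By this rule 16 of the 40 members were bound, or 40.0% (Wilson 95% interval 26.3 to 55.4, counting error only), beside 4569 of all 13945 protein-coding genes, or 32.8% (32.0 to 33.5). The interval of the members holds the share of all genes. Mediator genes were bound in 10 of 25 cases and TAF genes in 6 of 15, both 40.0%. Called on the 9766 highest peaks of each replicate alone, 19, 17 and 17 members were bound in replicates 1, 2 and 3. That was a mean of 44.2% ± 2.89 for the members and 33.4% ± 2.05 for all genes (SD, n = 3 each). The SD is the spread between lists over the same genes and leaves out counting error. The members' share was above that of all genes in each replicate. Its Wilson intervals, 32.9 to 62.5, 28.5 to 57.8 and 28.5 to 57.8%, each held the share of all genes, 35.6, 31.5 and 33.2%.

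The layout of the genes differed more than the share bound. A head-to-head neighbour, a protein-coding gene on the other strand that starts at most 1000 bp away and runs off in the opposite direction, was present at 31 of 40 members, or 77.5% (62.5 to 87.7), and at 36.2% of all protein-coding genes (35.4 to 37.0). Among genes with this layout, 15 of 31 members were bound, or 48.4% (32.0 to 65.2), beside 52.1% of all such genes. Without such a neighbour only MED4 was bound of 9 members, or 11.1% (1.99 to 43.5), beside 21.8% of all such genes. Within each layout the share of the members bound was thus not above that of all genes, although over both layouts together it was. The order in the head-to-head layout was not stable: in the pooled list of 30000 peaks it was 67.7% of the members beside 62.9% of all such genes. Taf10 and Taf10b are each other's neighbour and count as 2 members over 1 gap. Members also had few start sites: 35 of 40, or 87.5% (73.9 to 94.5), had 1 annotated TSS, against 73.5% of all genes. Of these 35 members 14 were bound, or 40.0% (25.6 to 56.4), beside 25.7% of all genes with 1 TSS. The interval just holds that share, and genes with 1 TSS were not split by layout.

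**Figure D1:**
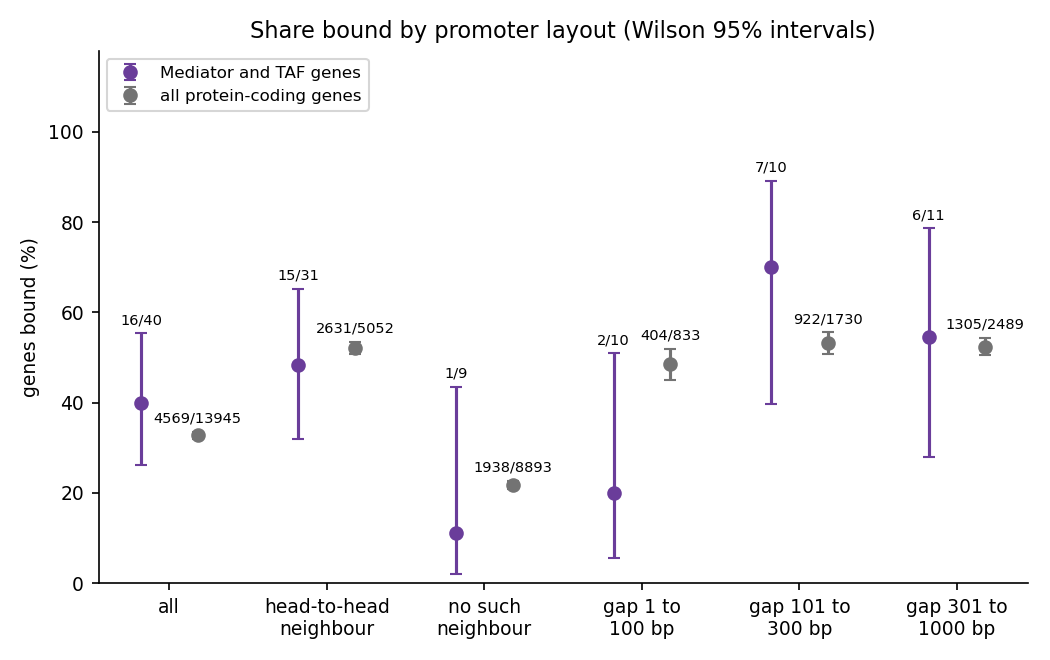
Percent of genes bound (vertical axis) for the Mediator and TAF genes beside all protein-coding genes, over all genes, with and without a head-to-head neighbour, and by the gap between both TSSs. Points are shares, labelled with bound over total, and error bars are Wilson 95% intervals; 40.0% of the members against 32.8% of all genes were bound, and 48.4% against 52.1% where a head-to-head neighbour was present.

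The length of the gap to the neighbour was looked at in 3 classes chosen after the values were seen. At gaps of 1 to 100 bp, 2 of 10 members were bound, MED6 and Taf2, or 20.0% (5.67 to 51.0), beside 48.5% of all genes with such a gap. At 101 to 300 bp it was 7 of 10 members, or 70.0% (39.7 to 89.2), beside 53.3% of all genes. At 301 to 1000 bp it was 6 of 11 members, or 54.5% (28.0 to 78.7), beside 52.4% of all genes. The median gap was 278 bp at the 15 bound members and 102 bp at the 16 unbound ones, while over all genes the medians were 299 and 295 bp. The intervals of the members are wide and overlap each other. At gaps of 1 to 100 bp, the unbound MED10, MED23, Taf10, Taf10b and Taf12 had a summit near the TSS in the pooled list. MED18, MED20 and MED28 had none there. Taf10 and Taf10b are 2 members over 1 gap in this class. The gap classes were not recounted on the pooled list, for the members or for all genes.

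At the bound members the peaks were mostly of middle to high signal. The signal is the authors' peak height. How it was normalized is not known here, so it only ranks peaks within 1 list. In the optimal list it ran from 151 to 10606 over all peaks. The highest peak of each bound member had a median signal of 732, with quartiles of 538 and 953. An interval for this median, taken from the ordered signals of the 16 members, ran from 418 to 1087. Over all bound genes the median was 460.5, which that interval holds, with quartiles of 268 and 822. In the 3 gap classes above, the medians were 671, 778 and 805 for bound members and 539, 606 and 448 for all bound genes. Of the 16 members 12 lay above the median of all bound genes, 9 of 10 Mediator genes and 3 of 6 TAF genes. The median was 770.2 for the Mediator genes and 498 for the TAF genes. No member reached the top of the list, where signals of bound genes went up to 10142, and the highest, MED30, ranked 228.

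**Figure D2:**
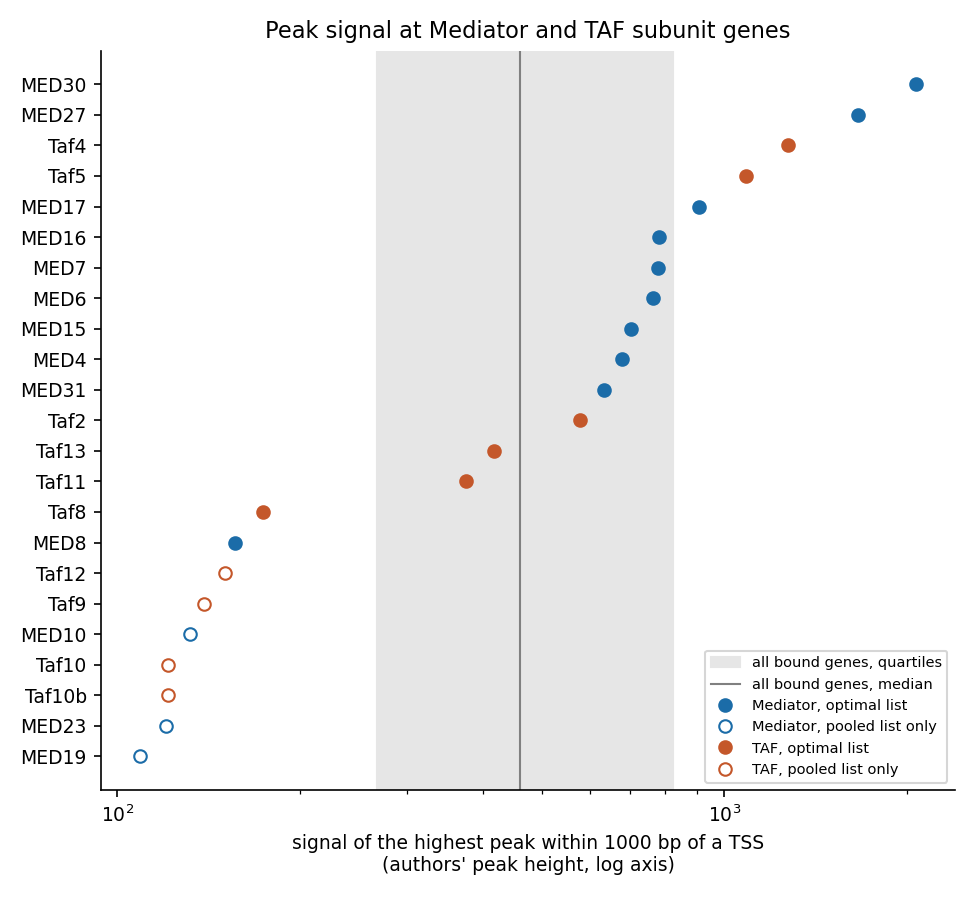
Signal of the highest peak within 1000 bp of a TSS (the authors' peak height, log axis) at the 16 bound Mediator and TAF genes (filled) and at the 7 members with a peak in the pooled list only (open), beside the median and quartiles of all bound protein-coding genes. MED30 at 2069 and MED27 at 1663 lie highest, Taf8 at 174 and MED8 at 156 are the lowest bound members, and the 7 open points lie below them.

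Of the Mediator head, which touches the polymerase, 4 of 9 genes were bound. MED30 had the highest signal of all members, 2069, at a peak on 3L from 654015 to 654484 whose summit lay 197 bp upstream of the MED30 TSS and 77 bp upstream of that of Rev1, a translesion DNA polymerase, with 274 bp between both TSSs. In replicates 1, 2 and 3 the MED30 peak had signals of 811, 861 and 385 and ranks of 214, 235 and 440 among 30000. The rank was thus within the first 500 in each replicate. MED17, the scaffold of the head, had a signal of 908 at a peak on 3R from 18188627 to 18189170, 106 bp upstream of its TSS and 259 bp upstream of that of CG12321. The MED17 peak ranked 1096, 1369 and 1254 in replicates 1, 2 and 3, with signals of 364, 335 and 223. Its summit window, shown above, has a GC content of 16.5%.

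MED6, a head subunit that contacts the middle module, has 5 annotated TSSs and 2 optimal summits. The higher MED6 peak, on 3R from 9767689 to 9767957 with a signal of 762, had its summit 9 bp upstream of the most downstream of these TSSs, within the 5′ UTR of longer MED6 transcripts, and 10 bp upstream of the TSS of Naa80, an actin N-acetyltransferase that starts 19 bp away on the other strand. It ranked 908, 2715 and 2355 in replicates 1, 2 and 3, with signals of 404, 207 and 150.2. The other MED6 summit, with a signal of 446, lay 21 bp downstream of another of its TSSs. MED6 thus stood higher in replicate 1 than in the other replicates. MED8, also of the head, had the lowest signal of the bound members, 156 at rank 9511, on 2R from 20326856 to 20327315, 280 bp upstream of its TSS and 184 bp upstream of that of CG8929. The MED8 summit was matched within 100 bp in replicates 1 and 2, at ranks 9307 and 9002, and not in replicate 3, where the nearest summit lay 148 bp away at rank 10096.

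Of the middle and hook genes, 3 of 9 were bound. MED7, which in yeast forms the hinge of the middle module with MED21, had a signal of 778 on 3R from 10760942 to 10761259, 67 bp upstream of its TSS and 211 bp upstream of that of Cap-H2, a subunit of condensin. MED7 ranked 1701, 1554 and 1809 in replicates 1, 2 and 3, with signals of 276, 311 and 177. Its partner MED21 was not bound, and the optimal summit nearest to it lay 896554 bp away. MED4, another middle subunit, was the bound member without a head-to-head neighbour, and its peak lay on 3L from 7250558 to 7250822 with a signal of 678, 164 bp upstream of its TSS and within an exon of the antisense RNA gene asRNA:CR43470. MED4 ranked 1842, 1868 and 2583 in replicates 1, 2 and 3, with signals of 264, 275 and 142. MED31, also of the middle module, had a signal of 634 on 3R from 4641691 to 4641974, 168 bp upstream of its TSS. It shares that TSS with slx1, a subunit of a structure-specific endonuclease, and the summit lay 43 bp downstream of the TSS of CG9775, within an intron of that gene.

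Of the tail and backbone genes with a MED symbol, MED15, MED16 and MED27 were bound. MED27 had a signal of 1663 on 3R from 5654763 to 5655223, and its summit lay midway, 139 bp upstream of its own TSS and 139 bp upstream of that of elm. In replicates 1, 2 and 3 MED27 had signals of 666, 644 and 331 and ranks of 353, 437 and 586. MED16 had a signal of 782 on 2R from 22182952 to 22183239, 43 bp upstream of its TSS and 216 bp upstream of that of CG11170. It ranked 1235, 1809 and 2254 in replicates 1, 2 and 3, with signals of 338, 281 and 155. MED15, a tail subunit that activators bind, had a signal of 702 on 2L from 472329 to 472608 and the summit farthest from its own TSS, 546 bp upstream, while the TSS of CG4297 lay 267 bp away. MED15 ranked 1714, 1862 and 2240 in replicates 1, 2 and 3, with signals of 275, 276 and 156. MED14, the backbone that joins the modules, was not bound.

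Of the TAF genes, Taf4 and Taf5 had the highest signals. Taf4, a histone-fold subunit, had a signal of 1275 at a peak on 3L from 16113425 to 16113890. The gene has 3 TSSs, and the Taf4 summit lay within its first intron, 483 bp downstream of the most upstream TSS and 95 bp upstream of the next. Like the MED4 peak, the Taf4 peak has no TSS of another protein-coding gene within 1000 bp of its summit, although Zn72D starts 586 bp from the first TSS of Taf4 on the other strand. In replicates 1, 2 and 3 Taf4 had signals of 479, 536 and 284 and ranks of 685, 625 and 808. Taf5, which carries WD40 repeats, had a signal of 1087 on 2R from 10879627 to 10880031, 194 bp upstream of its TSS and 107 bp upstream of that of Pex6, an ATPase of peroxisome import. Taf5 ranked 924, 914 and 1027 in replicates 1, 2 and 3, with signals of 401, 436 and 249, so that its place hardly moved.

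The other bound TAF genes lay lower. Taf2, which contacts initiator DNA, had a signal of 579 on 3L from 9888644 to 9888918, 112 bp upstream of its TSS and 33 bp downstream of that of the calpain gene CalpB, in the 5′ UTR of CalpB. A further Taf2 summit lay 316 bp upstream of its TSS with a signal of 477. In replicate 1 the nearest summit to the higher one lay 114 bp away, so only replicates 2 and 3 matched it within 100 bp, at ranks 2417 and 2304. Both genes of the histone-fold pair Taf13 and Taf11 were bound. Taf13 had a signal of 418 on 2L from 20093734 to 20094193, 115 bp upstream of its TSS and 8 bp upstream of that of nesd, and ranked 3612, 4109 and 4292 in replicates 1, 2 and 3. Taf11 had a signal of 375 on 2L from 9763413 to 9763550, 167 bp upstream of its TSS and 60 bp downstream of that of und, a methionine aminopeptidase gene, in its 5′ UTR. Taf11 ranked 4790, 4286 and 3889. Taf8, a partner of Taf10, had a signal of 174 at rank 8658 on X from 18101699 to 18102158, 41 bp upstream of its TSS, with Mvb12, an ESCRT-I gene, starting 656 bp away. Taf8 was matched at ranks 7906 and 8508 in replicates 1 and 2 and not in replicate 3, where the nearest summit lay 381 bp away at rank 21099.

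**Figure D3:**
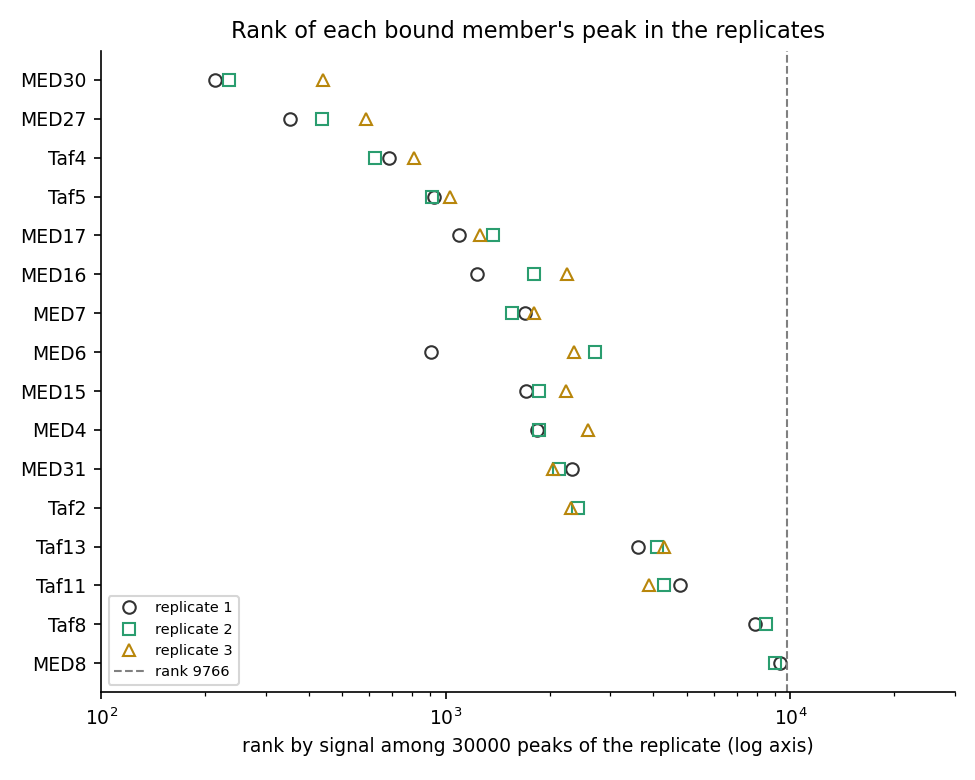
Rank of the highest optimal peak of each bound member in each of the 3 replicates (log axis, 1 being the highest signal; the dashed line is rank 9766). MED30 and MED27 stand first in every replicate, MED6 stands higher in replicate 1 than in the others, and no point is drawn for Taf8 and MED8 in replicate 3 and for Taf2 in replicate 1, where no summit lay within 100 bp.

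Over all bound members, 13 of 16 highest peaks had a counterpart within 100 bp in each replicate's own top 9766, or 81.2%, beside 74.0% for all bound genes. The exceptions were Taf2, Taf8 and MED8.

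The summits of the members lay close upstream of their start sites. All 16 highest peaks had the summit upstream of the nearest TSS of the member, beside 81.2% of all bound genes. At Taf4 and MED6 the summit also lay downstream of other TSSs of the same gene. The median position was -127 bp, with quartiles of -174 and -88 bp and a range of -546 to -9 bp. For all bound genes the median was much the same, -129 bp, and the quartiles were wider, at -275 and -35 bp. Within the 250 bp upstream of the TSS lay 14 of the 16 member summits, or 87.5%, against 53.6% for all bound genes, the exceptions being MED8 and MED15. A head-to-head neighbour was present at 15 of the 16 bound members and at 2631 of the 4569 bound genes. Positions were not compared within that layout. Peak width had a median of 362 bp at the members and 410.0 bp at all bound genes.

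Most of these peaks stood at the start of another gene too. The highest peak of 14 of 16 bound members, or 87.5% (64.0 to 96.5), had its summit within 1000 bp of a TSS of another protein-coding gene, beside 58.1% of all bound genes. In 11 of these 14 cases the summit lay between both start sites, and at MED31, Taf2 and Taf11 it lay past the start of the neighbour, within the neighbour's own transcribed sequence. The neighbour's TSS was the nearer one for these 3 and also for Taf13, Taf5, MED30, MED15 and MED8. By distance such peaks cannot be assigned to the member or to its neighbour. The share of peaks near another gene's TSS is also not separate from layout. As given above, 15 of the 16 bound members and 2631 of the 4569 bound genes had a head-to-head neighbour.

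**Figure D4:**
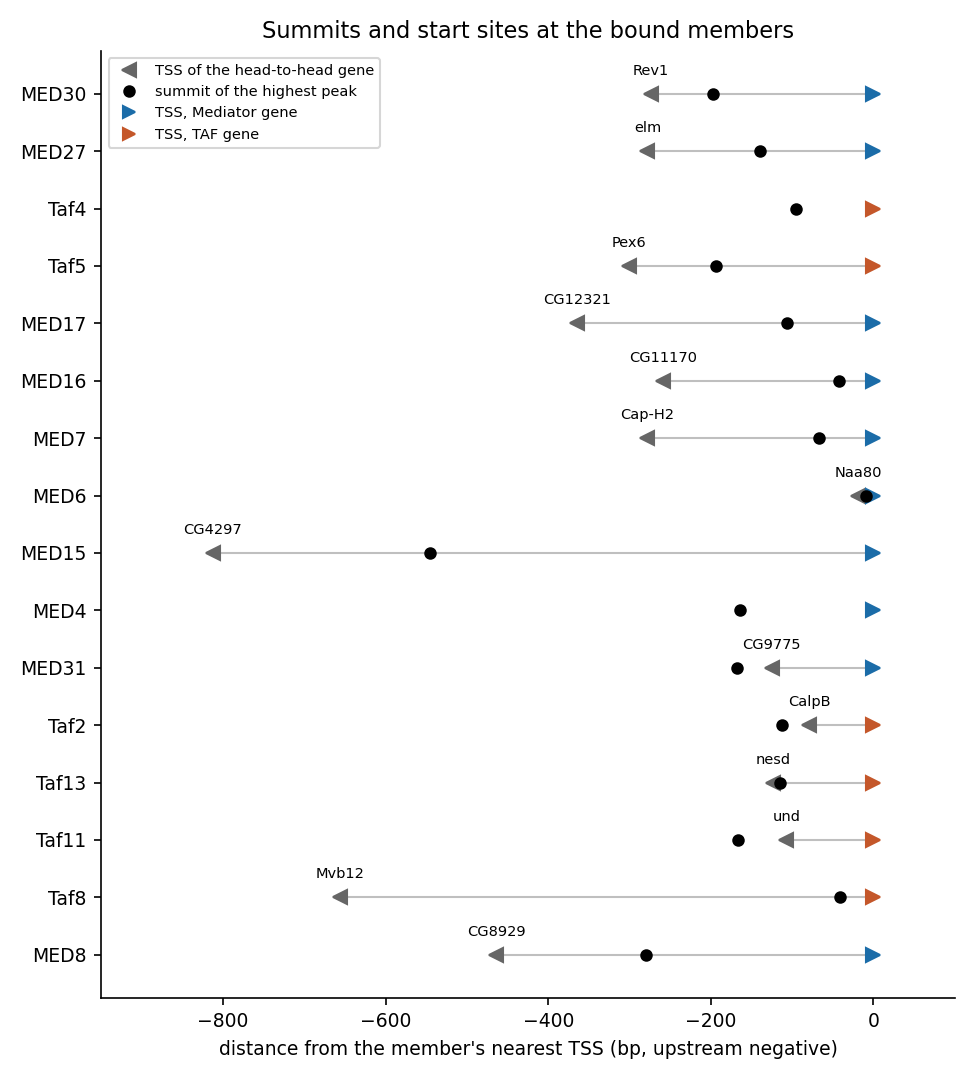
Distance in bp from the nearest start site of each bound member (0, with the gene running to the right) to the summit of its highest peak and to the start site of its head-to-head neighbour. Taf4 and MED6 also have start sites upstream of the summit, which are not drawn. All 16 summits lie left of 0, and 11 of the 14 summits with such a neighbour at the peak lie between both start sites.

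Of the 24 unbound members, 7 had a summit within 1000 bp of a TSS in the pooled list of 30000 peaks and background regions, or 29.2% (14.9 to 49.2), beside 22.6% of all unbound genes. Just inside the limit of the optimal list stood MED8 with a signal of 156 at rank 9511, and just outside it Taf12 with 150.3 at rank 9799 of the pooled list, 38 bp upstream of its TSS. Taf12 is the partner of Taf4. In replicates 2 and 3 its peak ranked 20974 and 11503, with summits 35 and 36 bp upstream, while replicate 1 had no summit within 100 bp of the pooled one and its highest summit near the TSS, at rank 7714, lay 163 bp upstream. Taf9 followed with 139 at 55 bp upstream and MED10 with 132 at 14 bp upstream. Taf10 and Taf10b, whose start sites are 45 bp apart, shared 1 summit with a signal of 121. MED23, a tail subunit, had 120.4 at 75 bp downstream and MED19, of the hook, had 109 at 15 bp upstream.

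The remaining 17 members, 42.5% of the 40 against 52.0% of all genes, had no summit within 1000 bp in the pooled list. They were MED1, MED9, MED11, MED14, MED18, MED20, MED21, MED22, MED24, MED25, MED26, MED28, Taf1, Taf3, Taf6, Taf7 and Taf12L. Among them are Taf1, the large scaffold of TFIID, whose nearest optimal summit lay 112764 bp away, and Taf12L, a paralogue of Taf12 used in the testis. MED26 and Taf3 lie on chromosome 4, where 11 of 80 protein-coding genes, or 13.8%, were bound. In 6 of the 17 a replicate list held a summit that the pooled list did not. For MED25 it was strong in replicate 2, with a signal of 158 at rank 3748 and 194 bp upstream of its TSS, and weaker in replicate 3, with 59.6 at rank 7430 and 147 bp upstream, while replicate 1 had none within 1000 bp. MED20 stood out by its neighbour Trf, a TBP-related factor gene that starts 47 bp away, and neither of them had a pooled summit within that gap.

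The short motifs were counted within 100 bp of the 16 member summits and, beside them, of the 4576 optimal summits within 1000 bp of any protein-coding TSS. The forkhead core, with the letters given above, was present at 8 of the 16 member summits (interval 28.0 to 72.0%), against 38.6% of all promoter summits. These were MED17, MED27, MED4, MED6, MED8, Taf11, Taf13 and Taf2, and Taf11 had 4 such matches. The full site GTAAACA was present at Taf2 alone, 18 bp from its summit, or 6.25% against 6.73%. The full DRE, TATCGATA, was present at MED17, or 6.25% against 6.01%. Its core TATCGAT, a motif added after the sequences were seen, was present at MED17 and MED27, or 12.5% against 12.2%, while the match in the Taf13 gap lies outside the window. The E-box CAGCTG was found at MED30 and Taf5, or 12.5% against 11.4%. GAGAG, the core letters of GAGA elements, was found at MED30 alone, or 6.25% against 24.7%. Its interval, 1.11 to 28.3%, holds the share of all promoter summits. Ohler motif 1, GGTCACAC, was found at no member, which allows up to 19.4% by the Wilson interval, against 4.35%. Both strands were searched, and the forkhead core can overlap the DRE core. The GC content of 201-bp windows on the summits had a median of 31.3% at the members, with a range of 21.9 to 46.8%, and 36.3% at all promoter summits. The windows with a forkhead core had 21.9% at MED8, 27.4% at MED17, 28.9% at Taf11 and 30.8% at Taf13. The others with a core had 31.3% at MED27 and Taf2, 33.8% at MED4 and 46.8% at MED6. The windows without a core had 21.9% at Taf5, 25.4% at MED31, 29.4% at MED7 and 34.3% at MED30. The remaining ones had 35.8% at MED16, 38.3% at MED15, 40.3% at Taf8 and 40.8% at Taf4. The part of GC content in the forkhead share was not tested.

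Genes of the same machinery with other symbols gave similar shares, which are described by counts. Of the kinase module genes kto, skd, CycC and Cdk8, only skd, which encodes MED13, was bound, with a signal of 696 at 431 bp upstream. The tail gene ix, which encodes MED29, was bound with 378 at 934 bp downstream of its TSS. Tbp, the TATA-binding protein, was bound with 152 at rank 9705, close to the end of the optimal list. Of 21 other general transcription factor genes 10 were bound, or 47.6% (28.3 to 67.6), among them TfIIA-S with 943, TfIIA-L with 923, the TFIIH genes Tfb4 with 747 and Xpd with 544, and Ssl1 with 5719. Of 13 RNA polymerase II subunit genes 6 were bound, or 46.2% (23.2 to 70.9), with 1482 at Polr2B, 1173 at Polr2H, 1112 at Polr2F, 862 at Polr2A and 805 at Polr2J. Of 16 genes of the coactivator SAGA 8 were bound (interval 28.0 to 72.0%), with 2689 at Gcn5, its acetyltransferase, 1019 at Ada2b, 916 at Ada3, 731 at e(y)2 and 703 at wda. Of the testis TAF paralogue genes nht, can, mia and sa, only can was bound, with 389.6. The intervals of the 3 larger lists hold the share of the Mediator and TAF genes, 40.0%, and that of all genes, 32.8%. Of the peaks with a signal given here, all but those of TfIIA-S, Polr2F, Ada2b and can lay within 1000 bp of another gene's TSS. Examples are the peaks of Ssl1 (Chro), Gcn5 (ver), Polr2B (140up) and Tfb4 (Vps29). By distance the peaks near another gene's TSS cannot be assigned to either gene.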

How the data were processed

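ChIP-seq of foxo-eGFP was analysed from the authors' peak lists on dm6, in narrowPeak format. The deposited signal value of each peak is the authors' own. Normalization, aligner, peak caller and reproducibility threshold were not given in the sources used here. Used were 1 optimal list of 9766 peaks and relaxed lists of 30000 peaks and background regions each for the 3 replicates and the pool. Every optimal peak was in the pooled list, among its 9766 highest, so the optimal list is not independent of it. Sequencing depth is unknown, and intervals cover counting error only. The dm3 lists and the columns of q-values were not used.

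Summits were set against TSSs of the Ensembl release 115 annotation on the main arms, and sequence was read from NCBI Release 6, the same assembly as dm6. Each gene was represented by its highest peak. Replicate summits matched within 100 bp. Shares carry Wilson 95% intervals (Python 3.11.15, numpy 2.4.6, scipy 1.17.1, matplotlib 3.10.9), and the counting was tested on simulated summits. Nothing says that shared promoters are independent, and members over 1 gap share a peak. All 16 bound members were named, with replicate values for the 10 of highest signal, and genes of other lists were named when bound with a signal above the median of all bound genes. The genes ix, Tbp and can fall outside this rule and were named after their values were seen. Alternatives were the TSS window, the TSS set, the peak threshold, the peak list and leaving out each replicate. The members, lists and motifs were chosen with earlier results of these data known.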

Additional observations from a re-analysis of the deposited data

How the results depend on the processing

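The share of members bound, 40.0%, was 37.5% with a window of 500 bp and 40.0% with the 5′ end of each gene only. The shares of all genes there were 28.7% and 30.7%. With a window of 2000 bp the members' share was 47.5%, as Taf10, Taf10b and Taf12 were gained, beside 38.8% of all genes. In the pooled list it was 57.5%, beside 48.0% of all genes. It was 35.0% with the 4883 peaks of highest signal, beside 22.0% of all genes. With peaks found in all 3 replicates within 100 and 50 bp it was 35.0% and 30.0%, beside 24.8% and 19.9%. Taf8 and MED8 were lost in these last 3, and MED31 and Taf2 also at 50 bp. Calls from the other replicates with 1 left out gave 35.0 to 40.0%, beside 27.7 to 30.0% of all genes. The members' share was above that of all genes in all 10 settings, which rest on the same 40 genes and overlapping peaks.

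The share bound among members with a head-to-head neighbour, 48.4%, was recomputed under the same settings, added after the data were seen. It was 45.2% with the 500 bp window and 48.4% with the 5′ end only, beside 47.1% and 50.1% of all head-to-head genes. With the 2000 bp window it was 58.1%, beside 56.5%, and in the pooled list 67.7%, beside 62.9%. With the 4883 peaks it was 41.9%, beside 37.8%, and with peaks of all 3 replicates 41.9% and 35.5%, beside 40.4% and 32.8%. It was 41.9 to 48.4% with 1 replicate left out, beside 44.8 to 48.7%. It lay below that of all head-to-head genes in 3 of these 10 settings and above it in the others, so the order between them is not stable. Over the 4 settings tried the median signal ranged from 689.8 to 778, beside 441 to 666 for all bound genes. With the 4883 peaks it was 770.2 beside 666. The share of peaks near another gene's TSS ranged from 85.7 to 89.5%, beside 58.7 to 62.3% for all bound genes. The peak lists hold no depth.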
